A study of Homo sapiens with 12 samples.

Results

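The genes of human chromosome 13 were followed in the order of their starts through 12 RNA libraries of OCI-AML3, an established acute myeloid leukaemia cell line. The members are the rows of the count table that the GENCODE 29 annotation places on chromosome 13 and that held at least 120 reads summed over the libraries. There were 218 of them, out of 1098 identifiers on the chromosome, 468 of which had at least 1 read, and out of 12911 identifiers of the whole table at the same minimum. A further 345 identifiers at that minimum were not placed on any chromosome. The members were chosen by their read sum, and the chromosome was selected on its low level in SA against Vehicle and in sgALAS1 against sgSCR, so fold changes of members in those comparisons are descriptions without a test. The members just inside the minimum were FARP1 with 132 reads, KLF12 with 138 and UBAC2-AS1 with 139, and those just outside were FAM124A with 108, RBM26-AS1 with 105 and DLEU7-AS1 with 103. Of the members, 190 are protein-coding, 9 are antisense RNAs, 7 are processed transcripts and the rest are pseudogenes, long intergenic RNAs and small RNAs.

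There were 4 groups of 3 libraries. In the drug arm, OCI-AML3 cells were cultured for 6 days with the compound SA, at 500 µM, or with vehicle alone. SA is not spelled out in the labels; the series is about heme synthesis, where that abbreviation stands for succinylacetone, a blocker of a later enzyme of the pathway. In the guide arm, OCI-AML3 cells carried sgALAS1, a guide RNA against the gene of the first heme enzyme, or sgSCR, a scrambled guide, and doxycycline was given for 7 days to induce the guide. Doxycycline is therefore common to both guide groups and is not listed for the drug arm. The labels do not say whether the transduced cells were pools or single clones, nor whether libraries of a group came from separate cultures, so the p-values below measure the spread between libraries, which may be technical.

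Chromosome 13 is an acrocentric chromosome that is poor in genes for its size. Its long arm carries the retinoblastoma gene RB1, the DNA repair gene BRCA2 and FLT3, the receptor tyrosine kinase most often mutated in acute myeloid leukaemia. It also carries DLEU2, a long RNA that hosts the microRNAs miR-15a and miR-16 in the segment often lost in chronic lymphocytic leukaemia, and MIR17HG, the host of the miR-17 to miR-92a cluster.

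The mature microRNAs of these 2 hosts are shown because the hosts lie on either side of the place where the profile along the chromosome altered. The sequences are from RefSeq (GRCh38.p14), 5′ to 3′, with the seed (bases 2 to 8) in capitals. The pair from DLEU2, on the minus strand at chr13:50049167-50049188 and chr13:50049027-50049048, has 1 seed in common.
miR-15a-5p: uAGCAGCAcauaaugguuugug
miR-16-5p: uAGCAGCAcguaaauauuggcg
The 6 from MIR17HG, on the plus strand between chr13:91350618-91350640 and chr13:91351361-91351382, fall into 4 seeds.
miR-17-5p: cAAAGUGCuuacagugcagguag
miR-20a-5p: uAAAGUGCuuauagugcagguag
miR-18a-5p: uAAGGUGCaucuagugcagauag
miR-19a-3p: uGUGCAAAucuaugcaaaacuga
miR-19b-3p: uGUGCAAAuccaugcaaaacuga
miR-92a-3p: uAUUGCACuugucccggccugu
Libraries of polyadenylated RNA do not measure mature microRNAs, so only the hosts have values below.

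The 250 bases before the start of 3 members are shown because they mark different outcomes. FLT3 (chr13:28100577-28100826) had low levels in both treated groups and lower ones in sgALAS1, ESD (chr13:46797162-46797411) had nearly equal low levels in both, and DZIP1 (chr13:95644707-95644956) had higher levels in both. All are on the minus strand of GRCh38.p14 and are written 5′ to 3′, and capitals mark 3 motifs searched on both strands, GGGCGG (the box of SP factors), CCAAT (the box of the factor NF-Y) and TATAAA (the TATA box).
FLT3: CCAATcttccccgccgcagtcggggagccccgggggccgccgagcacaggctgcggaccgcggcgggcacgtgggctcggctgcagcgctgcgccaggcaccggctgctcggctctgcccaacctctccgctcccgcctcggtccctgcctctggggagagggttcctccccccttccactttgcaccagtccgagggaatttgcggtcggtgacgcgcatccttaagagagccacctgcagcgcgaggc
ESD: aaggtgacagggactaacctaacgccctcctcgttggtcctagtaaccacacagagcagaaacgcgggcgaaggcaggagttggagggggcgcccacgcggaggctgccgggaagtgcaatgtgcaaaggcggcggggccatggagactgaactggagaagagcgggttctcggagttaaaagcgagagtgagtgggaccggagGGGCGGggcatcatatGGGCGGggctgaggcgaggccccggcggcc
DZIP1: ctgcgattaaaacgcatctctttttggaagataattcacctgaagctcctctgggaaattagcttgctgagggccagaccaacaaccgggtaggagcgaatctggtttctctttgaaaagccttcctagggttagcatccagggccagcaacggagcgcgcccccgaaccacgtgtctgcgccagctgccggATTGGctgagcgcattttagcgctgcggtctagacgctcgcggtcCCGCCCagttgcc
FLT3 held 1 CCAAT and 26 CpG, ESD held 2 GGGCGG and 20 CpG, and DZIP1 held 1 GGGCGG, 1 CCAAT and 18 CpG. RefSeq gave such a window for 179 of the 218 members, and for 150 of these the start lay within 500 bases of the GENCODE gene start. GGGCGG, which does not overlap the other motifs in letters, was in 58.7% of the 179, against 42.3% of all 27305 promoters of the table. CCAAT was in 33% of both, and TATAAA in 6.15% against 11.1%. The members had to pass a read minimum and the 27305 promoters did not, so the sets are unlike. The median CpG was 22 in the members and 11 in all promoters. These gaps are therefore not read as traits of the chromosome.

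Library totals ran from 4658513 to 7339843 reads, and log2 CPM (reads of a gene scaled to a common library size) correlated at 0.959 to 0.971 within groups. The 9 myeloid markers summed to 3310 to 3460 CPM in Vehicle, 3850 to 4340 in SA, 3300 to 3470 in sgSCR and 3710 to 3850 in sgALAS1, so that every treated library lay above every control. They weigh unequally in the sum: over the 12 libraries NPM1 ran from 916 to 1470 CPM, LYZ from 295 to 1610 and MPO from 1.55 to 4.95. NPM1 is not specific to myeloid cells, so the sum is no pure myeloid measure, and it does not show that each marker rose. HBB, HBA1 and KRT19 were at 0 and B-cell markers summed to at most 1.39 CPM. Of the T-cell markers CD3E and CD2 were at 0, but CD3D moved with the groups, at 12.1 to 15.4 CPM in Vehicle, 0.581 to 1.13 in SA, 4.17 to 5.61 in sgSCR and 0 in sgALAS1. Stromal markers, mostly COL1A2, summed to 5.36 to 7.76 CPM in Vehicle, 2.32 to 6.34 in SA, 0.397 to 2.08 in sgSCR and 2.87 to 6.16 in sgALAS1. The part of these markers in the results below was not tested. ALAS1, the targeted gene, stood at 38.6, 41.9 and 37.4 CPM in sgSCR and at 26.2, 26.3 and 27.3 in sgALAS1. Because 3′ reads need not cover the cut, its level is a weak check of the label. In the drug arm ALAS1 went the other way, at 37.5, 36.4 and 31.1 CPM in Vehicle and 106, 102 and 111 in SA.

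The first question was how low the chromosome as a whole stood in each library. Chromosome 13 had the lowest median of chromosomes 1 to 22 and X in both treated groups and was level between the controls. The median log2 fold change over the 218 members, all of which passed the filter on low counts, was -0.38 in SA against Vehicle (quartiles -0.62 and -0.07) and -0.35 in sgALAS1 against sgSCR (quartiles -0.75 and 0.00). In sgSCR against Vehicle it was 0.00 (quartiles -0.22 and 0.22). Values were below 0 for 170 members (78.0%) in SA, for 165 (75.7%) in sgALAS1 and for 110 (50.5%) between the controls. Over all 13832 tested genes the medians were -0.01, 0.00 and 0.01, with 51.0%, 50.3% and 49.1% below 0.

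Each library was then given a level, the median over members of its log2 CPM minus the Vehicle mean. It was -0.05, 0.05 and 0.03 in the Vehicle libraries and -0.34, -0.32 and -0.40 in SA. It was 0.04, 0.01 and -0.06 in sgSCR and -0.41, -0.32 and -0.37 in sgALAS1. All 6 treated libraries lay below all 6 controls, and the treated groups overlapped each other. The members took 1.07 to 1.23% of the reads of a Vehicle library, 0.839 to 0.936% in SA, 1.05 to 1.07% in sgSCR and 0.814 to 0.905% in sgALAS1. In bulk RNA, fewer cells with a given expression and less RNA per cell cannot be told apart.

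Among the 22 other chromosomes (1 to 22 and X) the next lowest medians were those of chromosome 8, at -0.26 in SA and -0.33 in sgALAS1, and of chromosome 6, at -0.15 and -0.16. The highest were 0.10 and 0.12. In sgALAS1 the distance from chromosome 8 was small. By the share of genes below 0, chromosome 8 equalled chromosome 13 in SA, at 78.0% each. In sgALAS1 it exceeded chromosome 13, with 78.9% against 75.7%. Between the controls, 11 of the 22 had a lower median than chromosome 13.

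**Figure D1:**
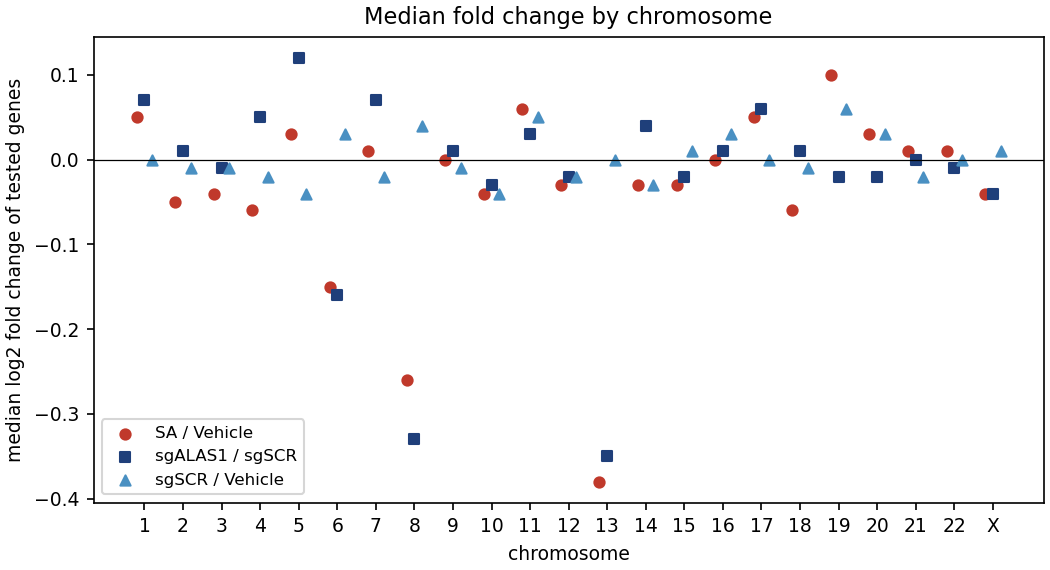
Median log2 fold change of the tested genes of each chromosome (vertical axis) for chromosomes 1 to 22 and X (horizontal axis), in SA against Vehicle (circles), sgALAS1 against sgSCR (squares) and sgSCR against Vehicle (triangles). Chromosome 13 is at -0.38 and -0.35 in the treated groups and at 0.00 between the controls.

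The next question was whether the low level covered the whole chromosome or a segment. It was deepest over the first part of the order, up to DIAPH3 and TDRD3, and nearly disappeared from MZT1 to OBI1. In the drug arm it returned more weakly after that, and in the guide arm only in the last stretch, from CARS2. The running median over 21 neighbouring members was below 0 at 197 of 198 positions in SA, at 175 in sgALAS1 and at 109 between the controls. In SA it went from -0.63, centred on RNASEH2B-AS1, to 0.02, centred on OBI1. In sgALAS1 it went from -0.82, centred on RUBCNL, to 0.10, also centred on OBI1, an E3 ubiquitin ligase gene of DNA replication. Between the controls it stayed between -0.22 and 0.27.

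**Figure D2:**
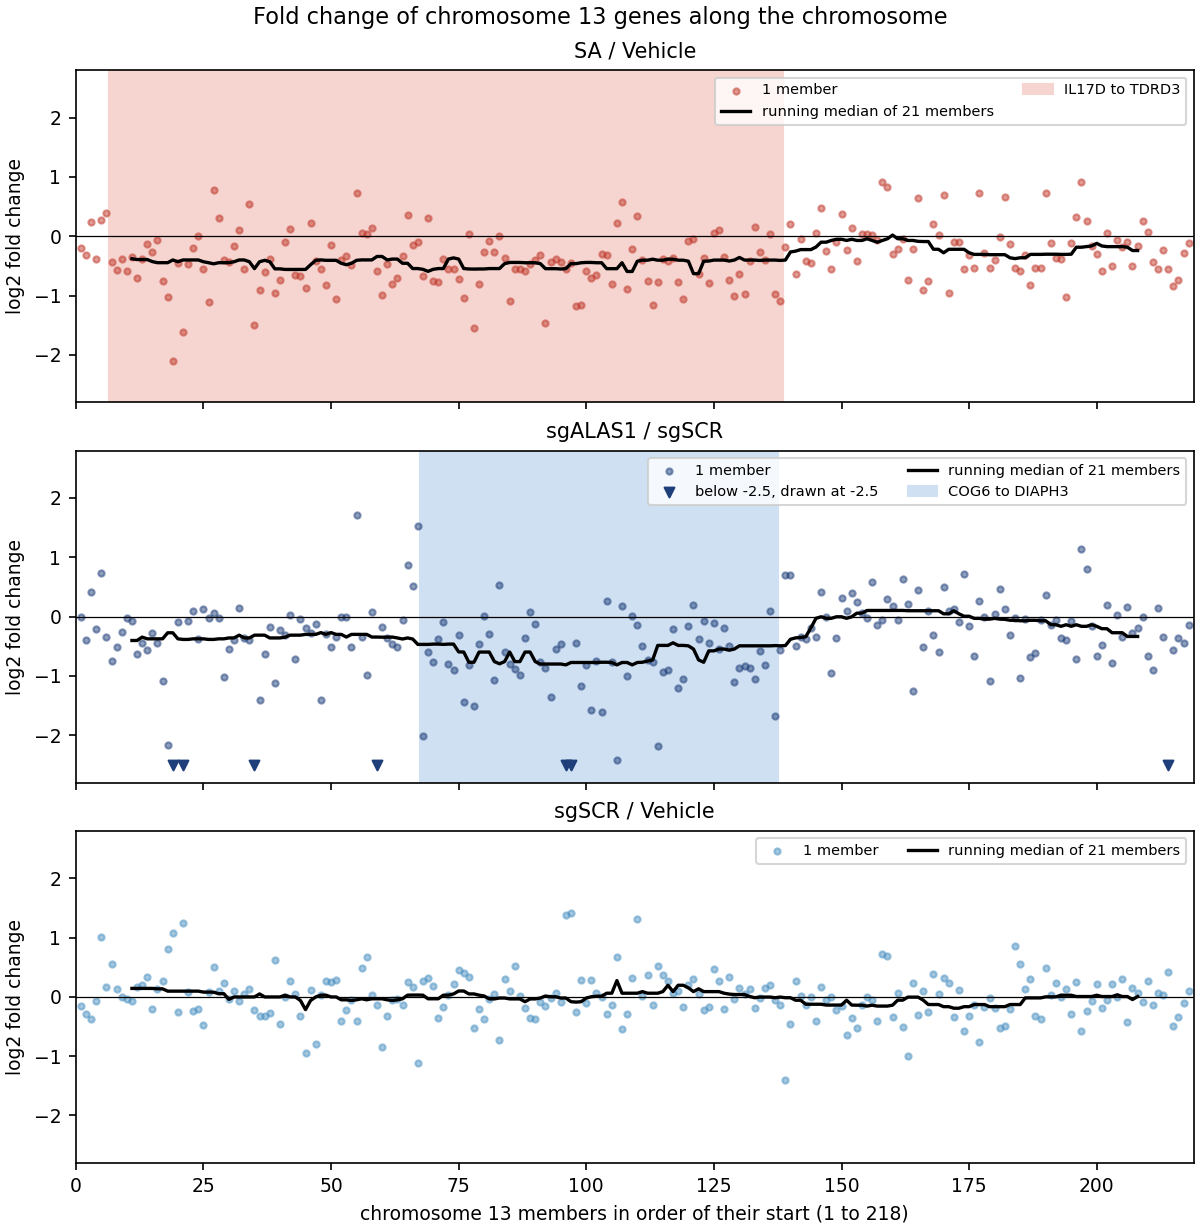
Log2 fold change of each of the 218 members (points, vertical axis) in order of start (horizontal axis), with the running median of 21 members (line), in 3 comparisons. The shaded stretches are the interval IL17D to TDRD3 in the drug arm and COG6 to DIAPH3, from the search on medians, in the guide arm; 7 values under -2.5 in the guide arm are drawn as triangles at -2.5.

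The members were also cut into 11 windows of 20 in order, the last holding 18. In the drug arm the window medians were -0.38 from MPHOSPH8 to PARP4, -0.45 up to SLC7A1, -0.40 up to RFXAP, -0.55 up to DGKH, -0.45 up to SUCLA2, -0.41 up to DLEU1 and -0.38 up to PCDH9. They were then -0.06 from MZT1 to OBI1, -0.25 up to UBAC2, -0.23 up to NAXD and -0.26 up to CHAMP1. The first 7 windows were thus at or below -0.38 and the last 4 above it.

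In the guide arm the same windows gave -0.38, -0.37, -0.29, -0.47, -0.78, -0.77 and -0.52, and then -0.02, 0.03, -0.10 and -0.34. The deepest pair of windows, from AKAP11 to DLEU1, holds TPT1, LCP1, ESD and RB1. In both arms the window that ends at PCDH9 was lower than the next, although PCDH9 itself was at 0.20 in SA and 0.70 in sgALAS1. Between the controls the window medians lay between -0.15 and 0.14.

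Per library, all 3 SA levels lay below all 3 Vehicle levels in 9 of 11 windows, the exceptions being the windows from MZT1 and from RBM26. All 3 sgALAS1 levels lay below all 3 sgSCR levels in 8 of 11, the exceptions being these and the window from GPR18. For sgSCR below Vehicle the count was 0 of 11. In the window from MZT1 to OBI1 the levels were -0.13, 0.03 and 0.06 in Vehicle, -0.15, -0.15 and -0.05 in SA, -0.16, -0.11 and -0.05 in sgSCR and -0.21, -0.03 and -0.36 in sgALAS1. The groups overlapped there. In the window that ends at DLEU1, SA replicate 3 stood at -0.74 against -0.50 and -0.38 in the other SA libraries, and in the next window at -0.64 against -0.39 and -0.23.

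**Figure D3:**
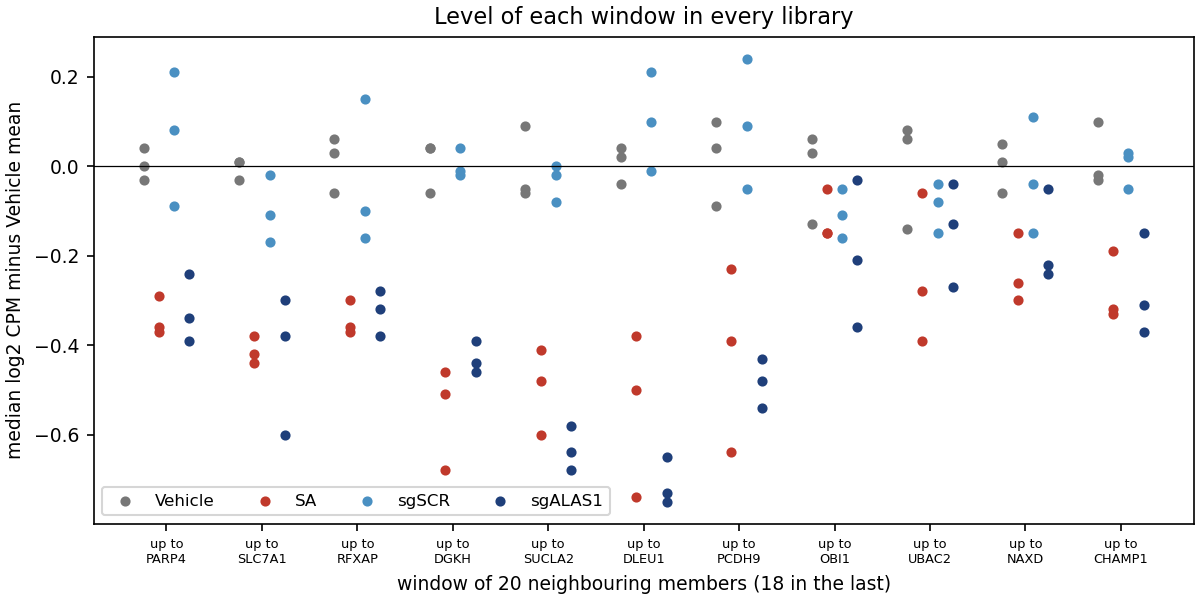
Level of each window of neighbouring members (horizontal axis, last member named) in each of the 12 libraries (points), as the median log2 CPM minus the Vehicle mean (vertical axis). Treated and control libraries are apart in the first 7 windows and overlap in both arms from MZT1 to UBAC2, and in the guide arm also up to NAXD.

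A search over all stretches of at least 10 members took the one with the largest gap in mean fold change between inside and outside, weighted by the numbers of members: the gap times the square root of their product over their sum. It placed the drug-arm interval from IL17D to TDRD3, members 7 to 138 of the order. IL17D encodes a cytokine of the interleukin 17 family and TDRD3 a Tudor-domain protein that works with a topoisomerase. The SA median was -0.44 over the 132 members inside and -0.19 over the 86 outside, of which the 6 before it were at 0.03 and the 80 after it at -0.20. The search picks its own ends, so that gap is a description. Read with the same ends in the guide arm, whose libraries did not set them, the medians were -0.49 inside and -0.07 outside. The chromosome was selected on the guide arm as well, so this reading is also a description. In sgSCR against Vehicle, which shares its control libraries with both arms, they were 0.03 and -0.06.

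Inside IL17D to TDRD3 the library levels were -0.02, 0.03 and 0.04 in Vehicle, -0.43, -0.39 and -0.50 in SA, 0.09, 0.06 and -0.08 in sgSCR and -0.50, -0.46 and -0.50 in sgALAS1. Outside it they were -0.10, 0.05 and 0.03 in Vehicle, -0.21, -0.16 and -0.24 in SA, -0.06, -0.07 and -0.05 in sgSCR and -0.18, -0.10 and -0.26 in sgALAS1. Treated and control libraries did not overlap inside. Outside, each treated group still lay below its own controls, by a smaller distance.

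Members beside the ends of the interval were read singly. Before it, CRYL1, a crystallin-like sugar dehydrogenase, was at 0.28 ± 0.52 (SE) in SA and 0.74 ± 0.47 in sgALAS1, and IFT88, a cilium transport protein, at 0.40 ± 0.25 and -0.35 ± 0.26. The first members inside, IL17D and the lysine methyltransferase gene EEF1AKMT1, were at -0.43 ± 0.52 and -0.57 ± 0.21 in SA and at -0.75 ± 0.51 and -0.52 ± 0.21 in sgALAS1. At the other end, DIAPH3, a formin that nucleates actin, and TDRD3 were at -0.97 ± 0.27 and -1.10 ± 0.51 in SA and at -1.67 ± 0.29 and -0.57 ± 0.50 in sgALAS1. Past the end, the coding gene ENSG00000197991, which the annotation used for names leaves without a symbol, and PCDH9, a protocadherin of cell adhesion, were at -0.18 ± 0.19 and 0.20 ± 0.15 in SA and both at 0.70 in sgALAS1, with standard errors of 0.21 and 0.16. With standard errors of up to 0.52, single members do not fix either end to 1 gene.

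In the guide arm the same search stopped at SKA3 to ENSG00000243008, 10 members with a median of -0.60 and a mean of -1.88, against a median of -0.34 outside. A pair of overlapping members, a pseudogene and a processed transcript, made that mean. TPTE2P6, a pseudogene, had 51, 38 and 16 reads in sgSCR and 1, 0 and 0 in sgALAS1, and 24, 18 and 14 in Vehicle against 4, 3 and 4 in SA. ENSG00000243008 had 64, 61 and 28 reads in sgSCR and 1, 0 and 0 in sgALAS1. The ratio of sgSCR to sgALAS1 in normalised reads was 100 (95% exact interval 17.6 to 3990) for TPTE2P6 and 146 (25.8 to 5800) for ENSG00000243008, counting error only. These members lie on 1 strand and overlap, so their reads are no independent pair. The sgSCR libraries held 105 of the 173 reads of TPTE2P6 and 153 of the 246 of ENSG00000243008. Without those libraries neither would have reached the read minimum for members. The ratios and their intervals are therefore descriptions and no support for a difference.

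Searched on medians, the guide-arm interval ran from COG6, a Golgi tethering subunit, to DIAPH3, 70 members with a median of -0.77 against -0.19 outside. The 67 members before it were at -0.31 and the 81 after it at -0.07. In SA the same 3 stretches were at -0.45, -0.40 and -0.22. Levels inside were -0.66, -0.55 and -0.61 in sgALAS1, 0.08, 0.10 and 0.01 in sgSCR, -0.46, -0.39 and -0.56 in SA and -0.05, 0.03 and 0.06 in Vehicle. The far end of the interval was DIAPH3 or its neighbour TDRD3 in both arms by this search, whereas the near end was at COG6 in the guide arm and at EEF1AKMT1 in the drug arm.

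The low level was present among weakly and strongly expressed members. With members split by mean level into 73, 72 and 73, from lowest to highest, the SA medians were -0.31, -0.42 and -0.38 and the sgALAS1 medians -0.36, -0.33 and -0.36. The gap between the members inside and outside IL17D to TDRD3 was present in each of these sets, in SA -0.43 against -0.11, -0.55 against -0.11 and -0.42 against -0.25. In sgALAS1 it was -0.58 against -0.07, -0.51 against -0.05 and -0.45 against -0.18. Coding members were at -0.38 and -0.34 in the 2 arms and the 28 other members at -0.42 and -0.64. Promoters held a median of 21 CpG for the 105 matched members inside and 24.5 for the 74 outside, and CCAAT was in 24.8% and 44.6% of them. GGGCGG was in 58.1% and 59.5%, and TATAAA in 8.57% and 2.7%; these are letter matches and no test was made of them.

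Single members were called at an adjusted p under 0.05 by edgeR's quasi-likelihood test with Benjamini-Hochberg adjustment over all tested genes. In SA, 43 members were called lower, where 6.24% of all tested genes were, and 2 higher, SLITRK5 and DZIP1, where 4.83% were. In sgALAS1, 53 were called lower (6.85% of all tested genes) and 6 higher (4.88%), namely NBEA, ENSG00000197991, PCDH9, DZIP1, LINC00676 and IRS2. These counts restate the contrasts by which the chromosome was taken up. Inside IL17D to TDRD3, 34 of 132 were called lower and 0 higher in SA, and 42 lower and 1 higher, NBEA, in sgALAS1. Outside it, 9 of 86 were called lower and 2 higher in SA, and 11 lower and 5 higher in sgALAS1. Lower in both were 27 members, 62.8% of the SA calls and 50.9% of the sgALAS1 calls. Of all tested genes, 2.97% were called lower in both, which is 47.6% of all SA calls and 43.4% of all sgALAS1 calls in that direction. The arms share no library. The SA count was 28 with either Vehicle replicate 2 or Vehicle replicate 3 left out, 25 with SA replicate 1 left out and 24 with SA replicate 3 left out.

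Counted by groups that do not overlap, 89 members were lower and 12 higher in SA (14.8% and 12.6% of all tested genes), and 89 lower and 15 higher in sgALAS1 (15.5% and 13.6%). Between the controls 26 were lower and 17 higher (8.73% and 8.42%).

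FLT3, which signals from the membrane of blood progenitors, is member 35 and had the lowest fold change in SA among members at or above 3 in mean log2 CPM. It stood at 44.0, 41.3 and 48.8 CPM in Vehicle and at 17.9, 14.3 and 15.1 in SA. In the guide arm it stood at 41.4, 38.9 and 34.9 CPM in sgSCR and at 4.63, 5.63 and 4.88 in sgALAS1. The groups did not overlap in either arm, and the sgALAS1 libraries were lowest of all. The log2 fold change was -1.50 ± 0.18 (SE) in SA and -2.92 ± 0.20 in sgALAS1. Both values lie below the lower quartile of all members.

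RB1, the retinoblastoma tumour suppressor that restrains entry into S phase, is member 105. It stood at 54.6, 68.2 and 71.3 CPM in Vehicle, 36.7, 45.2 and 28.7 in SA, 54.0, 61.6 and 59.8 in sgSCR and 38.4, 34.9 and 28.8 in sgALAS1. Treated and control libraries did not overlap, and the fold changes were close in the 2 arms, at -0.81 ± 0.16 and -0.77 ± 0.16. RB1 overlaps LPAR6 and RCBTB2 on the other strand, and whether the counting used strand is unknown here.

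ESD, an esterase that acts on glutathione conjugates, is member 99 and TRIM13, an E3 ubiquitin ligase of the endoplasmic reticulum, is member 119. ESD stood at 38.8, 41.8 and 49.4 CPM in Vehicle, 21.6, 17.3 and 19.1 in SA, 56.8, 55.1 and 46.1 in sgSCR and 25.6, 19.4 and 24.6 in sgALAS1. TRIM13 stood at 102, 105 and 84.4 CPM in Vehicle, 39.1, 51.3 and 50.7 in SA, 94.6, 79.6 and 84.5 in sgSCR and 35.2, 43.2 and 45.7 in sgALAS1. For both genes every treated library was below every control library. ESD was at -1.16 ± 0.17 in SA and -1.18 ± 0.17 in sgALAS1, and TRIM13 at -1.05 ± 0.14 and -1.06 ± 0.15.

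Among the host RNAs, DLEU2 overlaps TRIM13 on the other strand, so reads of the pair are not separable if strand was ignored. It stood at 19.7, 16.4 and 17.5 CPM in Vehicle, 8.55, 14.5 and 8.43 in SA, 17.9, 19 and 20.2 in sgSCR and 7.10, 8.54 and 9.09 in sgALAS1. The groups did not overlap, although SA replicate 2 came close to the controls, and the fold changes were -0.78 ± 0.24 and -1.21 ± 0.24. DLEU1, its neighbour, was at -0.08 ± 0.29 and -0.16 ± 0.29, with overlapping groups. MIR17HG, past the end at TDRD3, stood at 5.66, 7.62 and 3.36 CPM in Vehicle, 3.89, 2.59 and 2.43 in SA, 8.37, 3.86 and 5.62 in sgSCR and 3.40, 5.82 and 3.10 in sgALAS1. Its groups overlapped in both arms at this depth.

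DZIP1, a zinc-finger protein of cilium formation, is member 170, past the end at TDRD3, and the single member called higher in both arms. It stood at 30.6, 32.8 and 38.8 CPM in Vehicle, 54.8, 47.7 and 63.4 in SA, 45.0, 39.9 and 41.7 in sgSCR and 56.5, 55.1 and 66.0 in sgALAS1. The groups did not overlap, and the fold changes were 0.70 ± 0.15 and 0.49 ± 0.15; without any 1 of 4 guide-arm libraries (sgSCR replicates 2 and 3, sgALAS1 replicates 1 and 3) the second was not called. IRS2, an adaptor of the insulin receptor, stood at 233, 214 and 245 CPM in sgSCR and at 379, 434 and 393 in sgALAS1, a fold change of 0.80 ± 0.14. In the drug arm IRS2 overlapped, with 194, 311 and 310 CPM in Vehicle and 293, 347 and 331 in SA.

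Among members at a mean log2 CPM of at least 3, the 6 highest in SA include IFT88, which lies before the interval. Below that level, high values also occurred inside the interval, as for NBEA, member 55, at 0.73 ± 0.41 in SA and 1.72 ± 0.42 in sgALAS1. The other members with high fold changes named here lie past the end at TDRD3. SLITRK5, a membrane protein of synapses, was at 0.64 ± 0.20 in SA, with 22.2, 23.2 and 21.4 CPM in Vehicle and 31.7, 29.4 and 42.8 in SA, and at 0.45 ± 0.20 in sgALAS1 with overlapping groups. BIVM was at 0.73 ± 0.30 in SA, where the groups did not overlap, and at 0.36 ± 0.29 in sgALAS1, where they did; it overlaps BIVM-ERCC5 on the same strand, so reads may be split between them. TBC1D4, which regulates glucose transporter traffic, was at 0.48 ± 0.23 with overlapping groups and at 0.42 ± 0.23 with groups apart. SLAIN1, a microtubule-end protein, and NDFIP2, an adaptor of NEDD4 ubiquitin ligases, were near 0 in SA, at 0.02 ± 0.22 and -0.04 ± 0.25, and were at 0.58 ± 0.22 and 0.64 ± 0.25 in sgALAS1, with groups apart. LMO7 was at 0.37 ± 0.28 and 0.31 ± 0.29 and overlapped in both arms. Of the 6 members from SLITRK5 to LMO7 in this account, SLITRK5 in SA was the single call. Among the lowest, N4BP2L1, member 51, was at -1.05 ± 0.21 in SA and -0.35 ± 0.20 in sgALAS1, with groups apart in both arms and a call in SA alone.

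**Figure D4:**
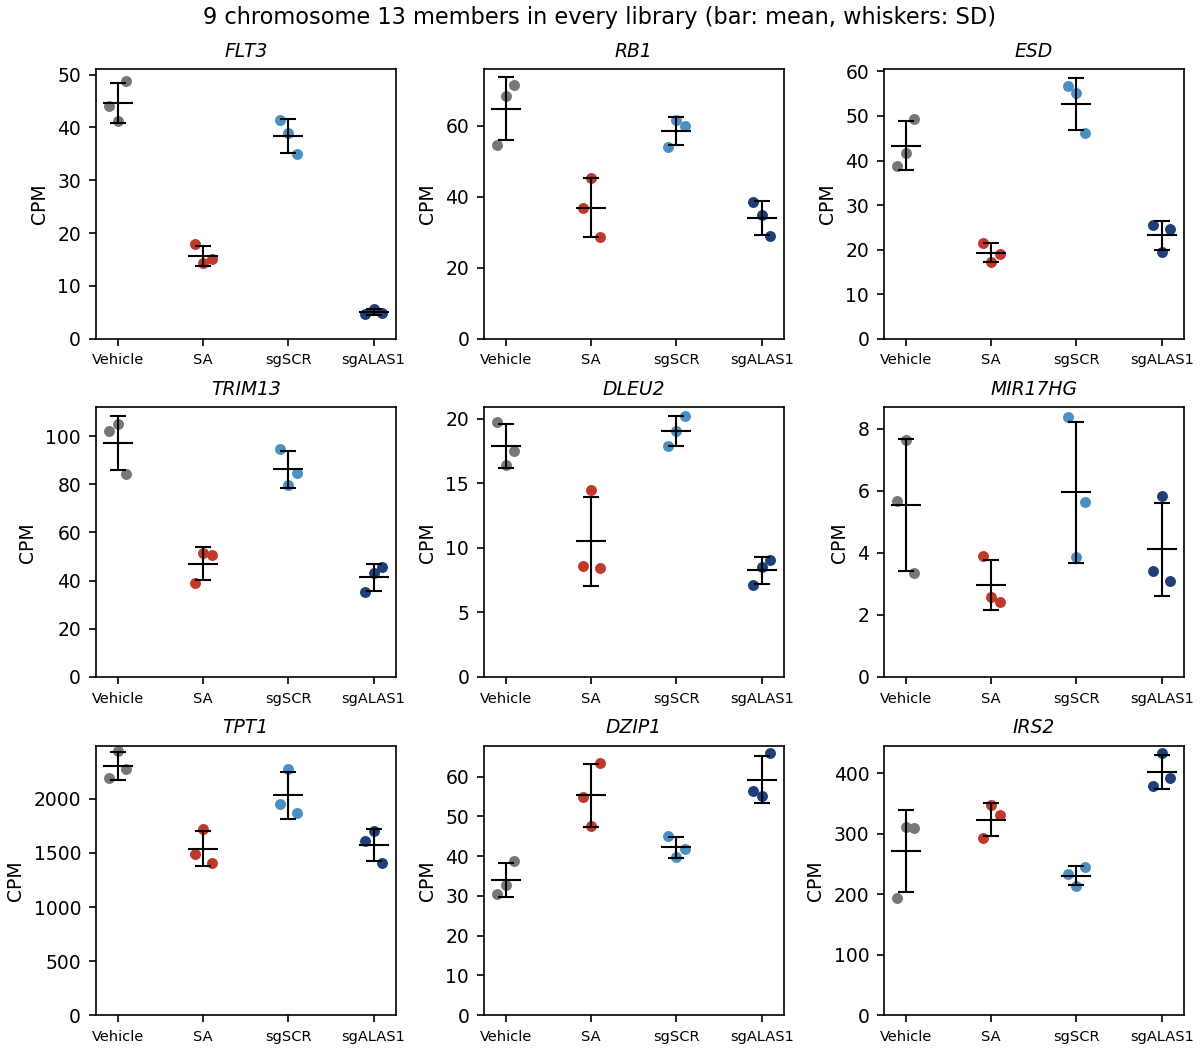
CPM (vertical axis, from 0) of 9 members in every library (points) of the 4 groups (horizontal axis), with the mean (bar) and SD of 3 libraries (whiskers). FLT3, RB1, ESD, TRIM13, DLEU2 and TPT1 are lower in both treated groups, DZIP1 is higher in both, and MIR17HG overlaps.

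The members were then grouped by role. Of all members 19.7% were called lower in SA and 24.3% in sgALAS1, and the counts of each list are to be read against these shares, as list counts near them say nothing particular of a list.

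Receptors and signalling genes had the medians nearest 0 of the role lists. Of 15 measured, 3 were called lower in SA and 4 in sgALAS1, with 1 higher, and the medians were -0.19 and 0.02; 5 of the 15 lie inside IL17D to TDRD3. FLT3 and RASA3, which turns off RAS proteins, were lower in both, RASA3 at -0.84 and -0.57. The RASA3 call in sgALAS1 was lost without any 1 of 4 guide-arm libraries (sgSCR replicates 1 and 2, sgALAS1 replicates 1 and 3). SPRY2, an inhibitor of receptor signalling, was at -0.73 in SA and 0.21 in sgALAS1. STK24 and RAP2A, a kinase and a small GTPase, were at -0.28 and -0.31 in SA with overlapping groups, as was the phosphatase MTMR6 at -0.19.

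Tumour suppressor and repair genes had medians of -0.54 and -0.38, with 3 of 11 called lower in each arm. TPP2, a large peptidase, was at -0.54 ± 0.13 and -0.62 ± 0.13 although it lies past the end at TDRD3, as member 188. RNASEH2B, which removes ribonucleotides from DNA, was at -0.64 and -0.38. BRCA2, of homologous recombination, was at -0.14 in SA with overlapping groups and at -0.51 in sgALAS1, a call lost without any 1 of 5 guide-arm libraries (sgSCR replicates 1 and 3, sgALAS1 replicates 1, 2 and 3). PARP4 and the Hippo kinase LATS2 were at -0.45 and -0.58 in SA and at -0.10 and -0.02 in sgALAS1.

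Cell cycle genes had medians of -0.47 and -0.36, with 5 and 6 of 17 called lower and 0 higher. SKA3, of the kinetochore, was at -0.70 and -0.63, and RFC3, of the clamp loader at replication forks, at -0.48 and -0.52. PDS5B, of cohesin, was at -0.34 and 0.00, and CENPJ, of the centriole, at -0.47 and -0.08. CUL4A and TFDP1, near the end of the chromosome, were at -0.17 and -0.24 in SA and at -0.20 and -0.34 in sgALAS1.

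Transcription and chromatin genes had medians of -0.40 and -0.49, with 7 of 17 called lower in each arm. HMGB1, an abundant DNA-bending protein, stood at 499, 512 and 592 CPM in Vehicle, 322, 383 and 319 in SA, 528, 552 and 578 in sgSCR and 321, 366 and 322 in sgALAS1. Its treated and control libraries were well apart, at -0.65 ± 0.11 and -0.72 ± 0.11. GTF3A, the factor of 5S ribosomal RNA genes, was at -0.43 and -0.54 and SAP18, of a histone deacetylase complex, at -0.35 and -0.07. FOXO1 was at 0.30 and -0.60 with overlapping groups, and MYCBP2, a very large ubiquitin ligase and member 155, at 0.04 and -0.03.

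RNA and translation genes had medians of -0.41 and -0.47, with 6 and 7 of 17 called lower. TPT1, the translationally controlled tumour protein and the member with the most reads, stood at 2190, 2440 and 2280 CPM in Vehicle, 1490, 1720 and 1410 in SA, 1950, 2280 and 1870 in sgSCR and 1610, 1700 and 1410 in sgALAS1. The groups did not overlap, at -0.58 ± 0.11 and -0.37 ± 0.11. TPT1 took 0.137 to 0.255% of a library's reads, so most of the chromosome's share came from other members. POLR1D, a subunit of RNA polymerases I and III, was at -0.55 and -0.36, ARGLU1, a splicing factor, at -0.38 and -0.36, and RBM26 at -0.22 and -0.05.

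Genes of mitochondrial proteins had medians of -0.56 and -0.47, with 4 and 6 of 18 called lower and 17 and 18 of 18 below 0, where 78.0% and 75.7% of all members were. MRPL57, of the large mitochondrial ribosomal subunit, was at -0.39 and -0.45. MTIF3, an initiation factor, was at -0.17 and -0.39 and COMMD6 at -0.25 and 0.00. SLC25A30, a carrier of the inner membrane, was at -1.47 ± 0.38 and -0.86 ± 0.37 from levels of 6.57 to 9.93 CPM in the control libraries.

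Folding, ubiquitin and secretory genes had medians of -0.39 and -0.27, with 4 and 6 of 31 called lower. POMP, which assembles proteasomes, was at -0.39 and -0.18 and HSPH1, a cochaperone of HSP70, at 0.22 and -0.27, with overlapping groups. LAMP1, a lysosomal membrane protein near the end of the chromosome, was at 0.25 and 0.00, and ITM2B at -0.32 and 0.27. VPS36, of the ESCRT machinery, was at -0.97 ± 0.22 and -0.84 ± 0.22.

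Immune and myeloid genes had medians of -0.33 and -0.45, with 4 and 5 of 12 called lower. LCP1, the actin bundler of white cells, was at -0.44 and -0.46, a call lost without SA replicate 3 in the first arm and without sgSCR replicate 2 in the second. ALOX5AP, which presents arachidonate to 5-lipoxygenase, stood at 131, 133 and 116 CPM in Vehicle, 70.7, 72.6 and 63.6 in SA, 66.3, 72.8 and 59.2 in sgSCR and 51.4, 61.2 and 62.1 in sgALAS1. Vehicle was thus apart from all other groups. LRCH1, a leucine-rich repeat protein, was at -1.18 and -0.44. The role lists were drawn up with earlier results known, and their medians stand beside the -0.38 and -0.35 of all members.

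The comparison of the controls, sgSCR against Vehicle, was not among those that chose the chromosome and could be tested gene by gene. It called 3 of 218 members lower (0.962% of all tested genes) and 2 higher (0.470%). ALOX5AP was lower by -0.94 (adjusted p = 6.44e-05, edgeR), ENSG00000197991 by -1.41 (adjusted p = 0.000121, edgeR) and SPRY2 by -1.0 (adjusted p = 0.0209, edgeR). RUBCNL, an autophagy regulator, was higher by 1.38 (adjusted p = 0.00819, edgeR) and PPP1R2P4, a pseudogene that overlaps it on the same strand, by 1.41 (adjusted p = 0.00913, edgeR). The calls of SPRY2, RUBCNL and PPP1R2P4 were each lost without sgSCR replicate 1, and those of SPRY2 and PPP1R2P4 also without Vehicle replicate 1; SPRY2 was lost without sgSCR replicate 3 as well. Transduction, the guide, doxycycline and the days of culture differ between these groups and cannot be told apart.

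The difference between the effects, sgALAS1 against sgSCR minus SA against Vehicle, was tested in the same fit. It is built from the 2 contrasts on which the chromosome was selected, so its calls are no independent support. It called 8 of 218 members lower, that is, lower in the guide arm than in the drug arm, where 0.759% of all tested genes were, and 0 higher, where 0.427% were. At an unadjusted p under 0.05, 22 members were lower and 12 higher, and DESeq2 called 2 higher, ALOX5AP at 0.68 and ITM2B at 0.57. The 8 were FLT3, CCNA1, RUBCNL, PPP1R2P4, ARL11, TNFSF13B, GAS6 and ENSG00000243008. Of these 6 lie inside IL17D to TDRD3. The median difference over all members was -0.02 (quartiles -0.39 and 0.28).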

How the data were processed

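RNA of 12 OCI-AML3 libraries was measured by QuantSeq 3′ sequencing of polyadenylated RNA, single-end, per the labels' protocols. The deposited table holds raw counts of reads per Ensembl identifier, without normalisation. Per the submitters' processing notes, the authors used bcl2fastq 2.17.1.14, cutadapt 1.14, HISAT2 2.0.4, featureCounts of Subread 2.0.0, edgeR 3.34.0, limma 3.48.3 and hg19. Strand setting and annotation: not given in the sources used here. GENCODE 29 (GRCh38) placed 52338 of 57905 identifiers, 5567 were not placed, and it gave order only, so no gene coordinates on hg19 are printed.

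All 12 libraries were fitted by group with edgeR 4.0.16 in R 4.3.3 (filterByExpr, TMM, two-sided quasi-likelihood test), with Benjamini-Hochberg adjustment over 13832 genes and a threshold of 0.05. The coefficient of variation was 16.4%. SE is the fold change over the square root of F. Levels used log2 CPM with a prior count of 2. Low depth limits members near 120 reads most. The fit and interval search were run on simulated counts in which a single stretch of members was lowered evenly in SA alone. The other members were left unchanged there, whereas in the data members outside the interval were low too. The simulation therefore does not show how well the ends are found in these data.

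The members, the lists by role and the naming rule were chosen with earlier results of these data known. The rule names up to 4 members per list with the most reads, FLT3, RB1, BRCA2, FOXO1, LCP1, ALOX5AP, TPT1 and MIR17HG, the 6 lowest and 6 highest per arm at a mean log2 CPM of at least 3, the calls between controls and the 2 members beside each interval end. It also names members at 1 read or fewer in every library of 1 group and at 10 or more in every library of another. RASA3, SLC25A30, NBEA, LINC00676, CCNA1, COG6 and the genes that end windows fall outside the rule and were chosen after seeing values. 1 marker and 1 member are not reported here. Alternatives were DESeq2 1.42.0, upper-quartile factors, TMM without chromosomes 8, 13 and Y, no filter, the 6 libraries of a comparison, a replicate block, each library left out, a minimum of 600 reads, a shortest interval of 20, a search on medians, a prior count of 5 and means over members. A search without TPTE2P6 and ENSG00000243008 was added after seeing the data. Replicate numbers were not shown to pair libraries: deviations of same-numbered libraries correlated at -0.0661 to 0.0572, and others at -0.152 to 0.109.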

Additional observations from a re-analysis of the deposited data

Results flagged for a closer look

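For 8 members the effect of the guide and the effect of the drug differed by edgeR's quasi-likelihood test of the difference itself, and in each the sgALAS1 effect was the lower. The difference is built from the contrasts on which the chromosome was selected, so the p-values here rank members and are no independent support. FLT3 differed by -1.42 (adjusted p = 0.00286, edgeR) and ARL11, a small GTPase of macrophages, also by -1.42 (adjusted p = 0.0106, edgeR). ARL11 stood at 60.6, 63.6 and 47.3 CPM in sgSCR and at 15.6, 15.1 and 5.98 in sgALAS1, and at 47.4, 36.9 and 34.5 in Vehicle against 22.1, 24.5 and 22.9 in SA, so it was lower in both arms. TNFSF13B, the B-cell survival factor BAFF, differed by -1.04 (adjusted p = 0.00601, edgeR), with fold changes of 0.33 in SA and -0.71 in sgALAS1.

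GAS6, a ligand of the TAM receptors, differed by -2.13 (adjusted p = 0.00925, edgeR), with 28.3, 25.2 and 13.7 CPM in sgSCR and 5.09, 2.91 and 1.99 in sgALAS1. CCNA1, the germ-cell cyclin also expressed in myeloid leukaemia, differed by -2.34 (adjusted p = 0.0204, edgeR), with 8.96, 10.1 and 9.09 CPM in sgSCR and 0.617, 2.36 and 0.665 in sgALAS1. The CCNA1 call was lost without any 1 of 5 libraries (Vehicle replicate 2, SA replicate 1, sgSCR replicate 2, sgALAS1 replicates 1 and 3), while the other 7 were kept in all 12 fits that left out a library.

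RUBCNL differed by -2.14 (adjusted p = 0.00871, edgeR) and PPP1R2P4, which overlaps it, by -2.33 (adjusted p = 0.00601, edgeR). RUBCNL stood at 33.5, 27.2 and 22.3 CPM in sgSCR, above the 6.34, 13 and 12.7 of Vehicle, and at 4.63, 5.27 and 2.66 in sgALAS1. ENSG00000243008 differed by -5.17 (adjusted p = 0.00885, edgeR), a fitted value that depends on the prior count because sgALAS1 held 1 read in all. The sgSCR libraries held 153 of the 246 reads of ENSG00000243008, and without them it would have missed the read minimum for members. Its p-value is therefore no support for a difference.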

How the results depend on the processing

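Every median over members kept its direction in both arms. Leaving out 1 library at a time, the median was -0.40 to -0.33 in SA, -0.38 to -0.28 in sgALAS1 and -0.04 to 0.02 between the controls. Members called lower numbered 24 to 45 in SA, 41 to 54 in sgALAS1, 2 to 4 between controls and 7 to 8 in the difference, and members called higher 1 to 3, 3 to 7, 0 to 2 and 0 to 1. Higher calls in the difference were 1 without the filter, 1 with the replicate block and 2 with DESeq2. With the replicate block, 48 members were called lower in SA and 56 in sgALAS1.

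Inside and outside medians, with a library left out, were -0.49 to -0.43 and -0.23 to -0.15 in SA, and -0.72 to -0.53 and -0.36 to -0.26 in sgALAS1. At a minimum of 600 reads they were -0.55 and -0.26 in SA (POLR1D to DIAPH3) and -0.51 and -0.10 in sgALAS1 (GTF3A to DIAPH3). In sgALAS1 they were -0.49 and -0.07 at a shortest interval of 20 (SKA3 to TDRD3), -0.77 and -0.19 on medians (COG6 to DIAPH3), and -0.76 and -0.18 without TPTE2P6 and ENSG00000243008 (COG6 to TDRD3), the alternative added after seeing the data. That search gave FLT3 to TDRD3 in SA, at -0.46 and -0.23. The drug-arm end was PIBF1 without Vehicle replicate 1 and CKAP2 without Vehicle replicate 2 or SA replicate 3. The level of sgALAS1 minus sgSCR was -0.36 by medians and -0.43 by means over members. Of the other summary values, 265 stayed within the limits set (counts within 1.5 times, other values within the spread between replicates), among them the 33 members called lower in SA with only the 6 libraries of the comparison, and 34 went past them. For single genes these numbers were 2334 and 42. At the depth used, members near 120 reads have large standard errors, such as 0.72 and 0.81 in the 2 arms for FARP1 and 0.62 and 0.67 for KLF12. The cause of these movements was not tested, beyond the 2 members that set the guide-arm interval.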
